A study of Caenorhabditis elegans with 24 samples.

Results

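The Mutator genes encode the proteins of Mutator foci, a perinuclear germ granule compartment in which Caenorhabditis elegans makes part of its secondary small RNAs. The members were taken by gene symbol as the rows named mut-2, mut-7, mut-14, mut-15, mut-16, smut-1, rde-2 and rde-8, which are 8 of the 46926 genes in the data. RNA came from whole worms of 4 genotypes, harvested as young adults after growth at 20 °C or at 26 °C, with 3 libraries for each genotype and temperature, or 24 libraries in all. WT worms carried 3xFLAG::GFP::WAGO-4, a tagged form of a germline Argonaute protein. 3×FG worms carried mutated phenylalanine-glycine repeats in the germ granule helicases GLH-1, GLH-2 and GLH-4 together with the tagged WAGO-4. The wago-4(Y611E) worms carried 3xFLAG::GFP::WAGO-4(Y611E), in which an amino acid change is meant to block small RNA binding. The wago-4(ko) worms lacked WAGO-4, and their label names no tag.

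Mutator foci amplify silencing signals. An RNA that has been recognised by a primary small RNA is cut and tailed there, an RNA-dependent RNA polymerase then copies it into antisense 22G-RNAs, and these load secondary Argonautes such as the WAGO proteins. MUT-16 is the scaffold on which the foci assemble and to which the other Mutator proteins are recruited. Loss of Mutator proteins is known to release transposons and to weaken RNA interference, and several of the genes were found in screens for these defects. Several mutants of the pathway are also known to lose fertility at raised temperature.

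The values used were mean normalized counts deposited by the authors, which average over all libraries of a temperature. There were 3 distinct means for each gene, over the 12 libraries of 20 °C, over the 12 libraries of 26 °C and over both temperatures. The means summed over all genes to 30474128 at 20 °C, 28460281 at 26 °C and 29667151 over both. Each mean pools the 4 genotypes, so the temperature values hold for the mixture of genotypes. The tables also hold the authors' own comparisons of mutants with WT and of the temperatures, with standard errors and tests, and these columns were not used here. No comparison of a mutant with WT is therefore reported, and the mean normalized counts, which come without a spread between replicates, are given as descriptions with no error and no test. Depth per library is unknown. In whole worms, fewer cells of a type and less RNA per cell cannot be told apart.

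All 8 Mutator mRNAs were present well above the low-count range, and the scaffold gene mut-16 stood above the others. Its deposited mean normalized count was 8148.2 at 20 °C and 6593.8 at 26 °C. Levels were compared between genes only after division by the length of the longest annotated transcript, as mean normalized count per kb over both temperatures. On this scale mut-16 was at 2129 per kb, 2.07 times the next member. The gene lies on chromosome I at 10080159 to 10085765, plus strand, with 14 exons in its longest transcript. Coordinates are those of build WBcel235.

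The processing enzymes followed. The gene mut-7, which encodes a protein related to 3′ to 5′ exonucleases and lies on chromosome III at 9539031 to 9542380, had a mean normalized count of 3698.5 at 20 °C and 2572.5 at 26 °C, and a level of 1030 per kb over both. The gene mut-2, also called rde-3, encodes a nucleotidyltransferase that adds repeated UG tails to cut RNAs. It lies on chromosome I at 6356614 to 6358411, and its mean normalized counts were 1592.0 at 20 °C and 1148.1 at 26 °C, with a level of 903.0 per kb over both. The endonuclease gene rde-8, whose product cuts target RNAs, lies on chromosome IV at 7101379 to 7103261. Its mean normalized counts of 1022.6 at 20 °C and 756.3 at 26 °C were the lowest of the 8 at each temperature, yet its transcript is short, and per kb it took place 4 at 801.6 over both temperatures. These 3 genes of RNA cutting, trimming and tailing therefore held places 2 to 4 of the order, each within 1.14-fold of its neighbour.

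The remaining members were lower and close together. The gene mut-15, on chromosome V at 15002543 to 15005067, had a mean normalized count of 1663.7 at 20 °C and 1335.6 at 26 °C. The gene rde-2, on chromosome I at 7280466 to 7282924, encodes a protein that binds MUT-7, and had 1543.2 and 1243.1. Per kb over both temperatures the pair lay at 715.4 for mut-15 and 711.8 for rde-2. Next came smut-1, on chromosome V at 6097105 to 6099083, with a level of 698.3 per kb, and mut-14, on chromosome V at 5658713 to 5660704, was lowest with 582.7 per kb. MUT-14 and SMUT-1 are closely related DEAD-box RNA helicases that can stand in for each other in the germline. Without a spread between libraries for these means, it was not tested which neighbours in this order differ beyond their error, and the steps from rde-8 down to smut-1 were at most 1.12-fold.

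**Figure D1:**
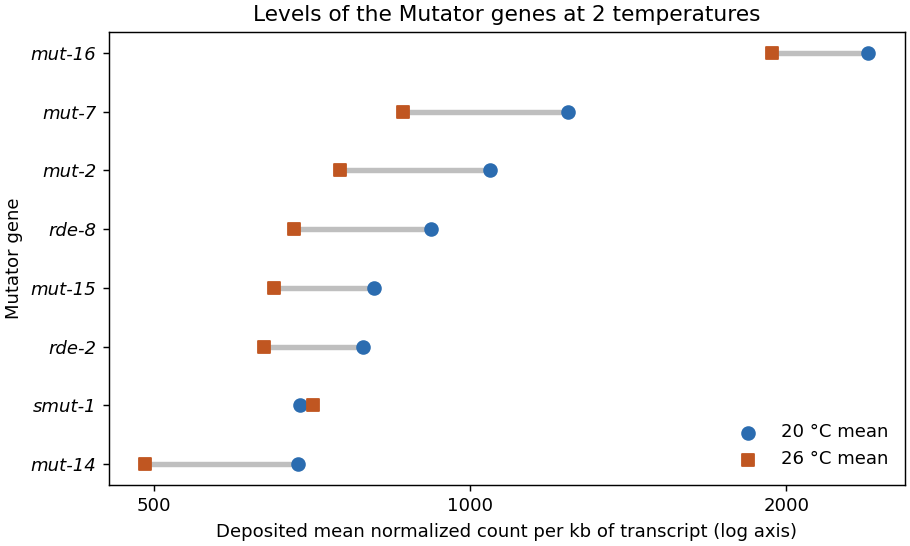
Deposited mean normalized count per kb of the longest transcript (log axis) of each Mutator gene, with circles for the mean at 20 °C, squares for the mean at 26 °C and a bar joining them; each temperature keeps its own scale and no error is known. The gene mut-16 sits furthest right at both temperatures, and smut-1 is the 1 gene whose square does not lie left of its circle.

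Set among all 19985 protein-coding genes, the members ranged from percentile 75.6 for mut-14 to percentile 92.7 for mut-16 in level per kb. Among the 13326 protein-coding genes with a mean of at least 10 over both temperatures, the same range was 63.5 to 89.1. All 8 members passed that minimum. The members are spread over 4 chromosomes, with 3 on chromosome I, 3 on V, 1 on III and 1 on IV, and no member adjoins another. The helicase genes mut-14 and smut-1 are on the same chromosome but 436400 bp apart, on opposite strands. The genes mut-7, mut-14, smut-1 and rde-8 have 1 annotated transcript each, mut-15, mut-16 and rde-2 have 2 each, and mut-2 has 4.

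Some member exons are shared with another gene. The gene mut-2 shares 67 bp of exon with bli-4 on the opposite strand, which is 4.3% of its exonic length, and smut-1 shares 92 bp, or 5.24%, with crt-1, the calreticulin gene, also on the opposite strand. The gene rde-2 shares 24 bp with hint-1 on its own strand. The library kit keeps strand, but whether the counting used it is not given in the sources used here, and reads from these stretches may have been assigned to either gene.

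The second question was how the members differed between 20 °C and 26 °C. As the 2 temperatures were normalized separately, both means were first brought to the scale of the mean over both temperatures, and the ratio of the 26 °C mean to the 20 °C mean was then taken as log2. A difference was called by size alone, at 1.5-fold. Of the 8 members, 7 had a lower scaled mean at 26 °C by 1.33-fold to 1.54-fold, and smut-1 was nearly even, at 1.04-fold lower. Only mut-7 passed 1.5-fold, a call that was kept when the ratios were centred on the median gene and lost under the other 5 scalings tried, where mut-7 was at -0.54 to -0.40 on the log2 scale. By the same measure 13.3% of the 13326 protein-coding genes were lower and 21.6% were higher by at least 1.5-fold, so that 1 of 8 lower is close to the background.

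The exonuclease-like gene mut-7 had a scaled mean of 3889.2 at 20 °C and 2522.3 at 26 °C, a log2 ratio of -0.62. The helicase gene mut-14 followed with 1259.1 and 840.2, a log2 ratio of -0.58, which falls just short of the limit. The tailing enzyme gene mut-2 had 1674.1 and 1125.7, a log2 ratio of -0.57, and the endonuclease gene rde-8 had 1075.3 and 741.6, a log2 ratio of -0.54. These 4 genes lay at percentiles 11.8 to 15.2 of the log2 ratios of protein-coding genes.

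The genes mut-15, mut-16 and rde-2 were less far below 0, and whether they differ from the lower genes was not tested. The scaled mean of mut-16 was 8568.4 at 20 °C and 6465.2 at 26 °C, a log2 ratio of -0.41. For mut-15 the scaled means were 1749.5 and 1309.6, a log2 ratio of -0.42, and for rde-2 they were 1622.7 and 1218.9, a log2 ratio of -0.41. These 3 genes lay at percentiles 21.3 to 22.0. The 7 members apart from smut-1 thus spanned a range of only 1.16-fold in their ratios, and smut-1 was 1.27-fold above the highest of them.

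The median log2 ratio of the members was -0.48, beside -0.01 for the protein-coding genes, whose quartiles were -0.36 and 0.50. At a limit of 0.32 on the log2 scale, 7 of 8 members were lower and none was higher, where the background was 27.8% lower and 32.5% higher. That count stayed 7 when centred on the median gene, and was 6 with factors from genes with a mean of at least 100. It was 4 with the means as deposited, 4 with shares of the sum and 4 with factors from a minimum of 1000. With shares of the sum without vitellogenins, the abundant yolk protein genes, it was 3. The background shares of 27.8% and 32.5% hold for the scaling used and were not counted under the others. The size of the ratio depended on how the temperatures were tied together. The scalings tried moved every log2 ratio upward by up to 0.23. The 7 members stayed below 0 under all 7 scalings, whereas smut-1 was below 0 under 2 of them and between 0.02 and 0.17 under the others. Each scaling adds the same amount to the log2 ratio of every gene, so the place of a member among the other genes is the same in all of them.

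**Figure D2:**
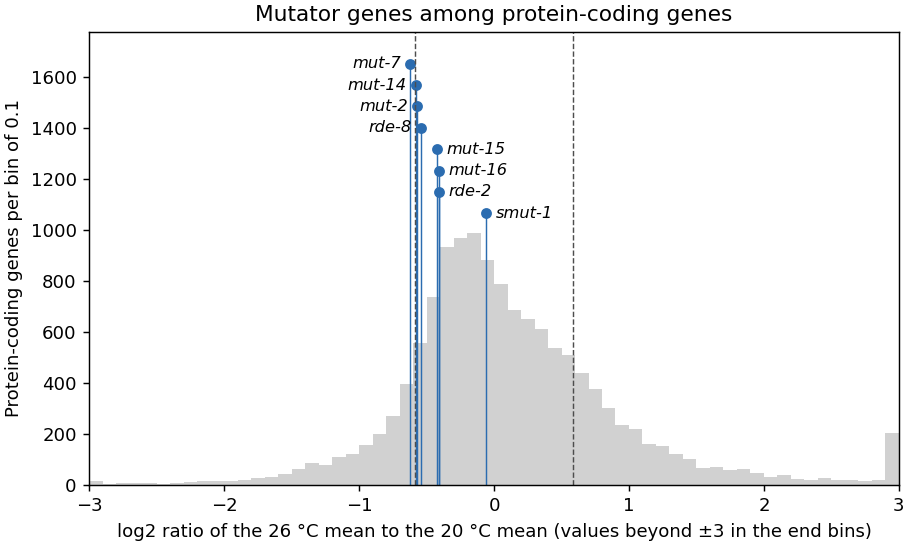
Number of protein-coding genes with a mean of at least 10 in each bin of 0.1 of the log2 ratio of the 26 °C mean to the 20 °C mean (grey bars, values beyond 3 in either direction in the end bins), with each Mutator gene as a line and a point at an arbitrary height. Dashed lines stand at 1.5-fold; mut-7 at -0.62 is the 1 member beyond it under this scaling and under 1 of the 6 others, and smut-1 at -0.06 lies apart from the other 7.

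A ratio between 2 members within the same mean needs no scaling between temperatures. The paralogues smut-1 and mut-14 had nearly equal deposited means at 20 °C, 1208.8 for smut-1 and 1197.4 for mut-14. At 26 °C the mean was 1242.5 for smut-1 and 856.9 for mut-14. The smut-1 to mut-14 ratio of levels per kb was thus 1.01 at 20 °C and 1.44 at 26 °C. The overlapping gene crt-1, whose deposited means were 17372.3 and 20091.6, had a log2 ratio of 0.11, and its part in the smut-1 value was not tested. Among the members, smut-1 moved from place 7 in level per kb at 20 °C to place 4 at 26 °C, and mut-14 was in place 8 at both.

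The proportion of the scaffold gene mut-16 to mut-15 and to rde-2 was nearly the same at both temperatures. In deposited mean counts, mut-16 was 4.90 times mut-15 at 20 °C and 4.94 times at 26 °C, and it was 5.28 times rde-2 at 20 °C and 5.30 times at 26 °C. Against mut-7, mut-2, rde-8 and mut-14 the proportion was larger at 26 °C. For mut-7 the mut-16 to mut-7 ratio was 2.20 at 20 °C and 2.56 at 26 °C, for mut-2 it was 5.12 and 5.74, for rde-8 it was 7.97 and 8.72, and for mut-14 it was 6.81 and 7.69. Against smut-1 it was smaller at 26 °C, with 6.74 at 20 °C and 5.31 at 26 °C. As a share of the summed level per kb of the 8 genes, mut-16 made up 27.9% at 20 °C and 28.9% at 26 °C, mut-7 made up 14.5% and 12.8%, and smut-1 made up 8.0% and 10.5%. The shares of the other 5 members lay between 8.0% and 12.2% at 20 °C and between 7.3% and 11.2% at 26 °C.

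**Figure D3:**
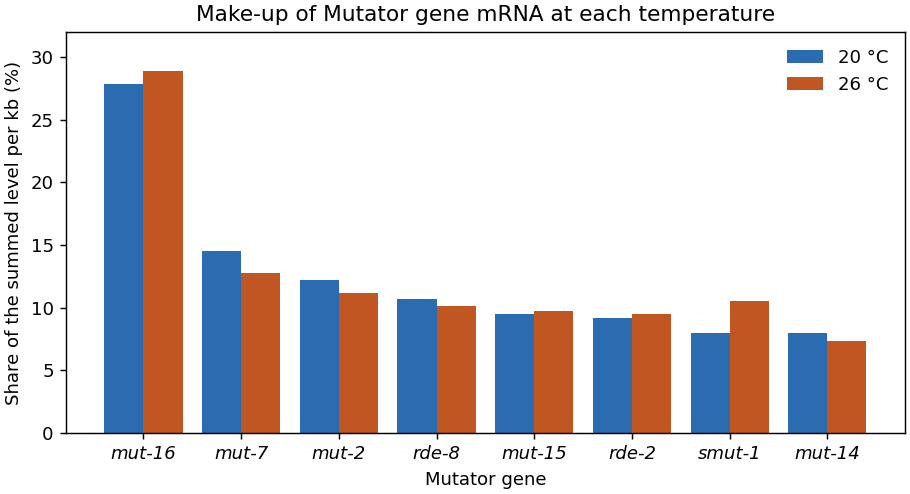
Share of each Mutator gene in the summed mean normalized count per kb of the 8 genes, in percent, at 20 °C (blue) and 26 °C (orange); a share needs no scaling between the temperatures and no error is known. The bars of mut-16 are the tallest, at 27.9% and 28.9%, and the bar of smut-1 is taller at 26 °C (10.5%) than at 20 °C (8.0%).

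The other genes of small RNA pathways give the setting for these values. Of 44 symbols listed beside the members, 43 were found in the data and pup-1 was not matched. Their median log2 ratio was -0.35. Of the 43, 36 were lower at 26 °C and 7 higher, where 50.5% of the protein-coding genes were lower. With shares of the sum, 29 of the 43 and 36.6% of the protein-coding genes were lower. At least 1.5-fold, 9 of the 43 were lower and 1 was higher, beside 13.3% and 21.6% of the protein-coding genes. The 9 became 3 with the means as deposited and 2 with shares of the sum. The median protein-coding gene moved to 0.09 and 0.19 under these scalings, where the background share past 1.5-fold was not counted. In the list of other Mutator-associated genes, the nuclease genes nyn-1 and nyn-2, relatives whose products work with RDE-8, lay on opposite sides of 0. The log2 ratio was -0.73 for nyn-1 and 0.34 for nyn-2. Their deposited means were 1166.2 for nyn-1 and 1225.6 for nyn-2 at 20 °C, and 755.1 for nyn-1 and 1662.2 for nyn-2 at 26 °C, so the nyn-2 to nyn-1 ratio of mean counts was 1.05 at 20 °C and 2.20 at 26 °C. The third gene of that list, the polymerase gene rrf-1, had a log2 ratio of -0.04, which turned to the other side of 0 under 5 of the 6 other scalings, and is given although the naming rule did not select it.

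The lists of RNA-dependent RNA polymerase, Z granule, P granule and germline Argonaute genes lay near the members. The SIMR and E granule list had a higher median. With shares of the sum, pid-2 of the Z granules, glh-3 of the P granules and prg-1 of the germline Argonautes turned higher. So did hrde-2 of the SIMR and E granules. These genes are named for that turn, outside the naming rule. Of the genes described next as past 1.5-fold lower, only lotr-1 and csr-1 stayed past it with shares of the sum. In the RNA-dependent RNA polymerase list, all 4 matched genes were lower, with log2 ratios from -0.51 to -0.35, and none passed 1.5-fold. This list does not hold the polymerase gene rrf-1, at -0.04. The most abundant gene of the list was ego-1, the germline polymerase that makes 22G-RNAs, at 1318 per kb with a log2 ratio of -0.38. In Z granules, the neighbouring compartment linked to the inheritance of small RNAs, all 6 genes were lower with a median of -0.48, and 3 passed 1.5-fold. These were lotr-1, which encodes a LOTUS and Tudor domain protein, at -1.0, the helicase gene znfx-1 at -0.60, and wago-4 at -0.59, whose mean includes the wago-4 mutants. In P granules all 9 genes were lower with a median of -0.41, and the scaffold gene pgl-1 at -0.61 and mip-1, which encodes a LOTUS domain protein, at -0.64 passed 1.5-fold. The Vasa-like helicase gene glh-1, which is mutated in 3×FG, was highest in level at 6508 per kb with a log2 ratio of -0.34.

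Among the germline Argonautes all 6 were lower with a median of -0.47. The gene csr-1, whose product binds small RNAs against expressed germline mRNAs, had a log2 ratio of -0.88, and wago-1, which encodes a secondary Argonaute and led the list at 8542 per kb, had -0.59. Of the 5 SIMR and E granule genes, 4 were lower and 1 was higher, with a median of -0.23. Their log2 ratios ran from -0.62 for simr-1 to 0.14. The gene simr-1 encodes the founding protein of the SIMR compartment between piRNA and Mutator steps. The most abundant, elli-1, had a log2 ratio of -0.44. Of the 7 RNAi entry genes none passed 1.5-fold in either direction, with a median of -0.17 and rde-4, a double-stranded RNA binding protein gene, as the most abundant at 2299 per kb. The 3 somatic secondary Argonautes were all higher at 26 °C, with a log2 ratio of 1.69 for sago-2 and 0.56 for sago-1. The third, nrde-3, which the naming rule did not select, was at 0.11. The level of sago-2 was the lowest of the 3, at 131.7 per kb. No test sets the members apart from any of these lists.

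All 12 germline and oocyte markers were lower at 26 °C under the scaling used, with log2 ratios from -0.74 to -0.13 and a median of -0.37. With shares of the sum 9 of the 12 were lower, and 8 with shares without vitellogenins. Of the protein-coding genes, 50.5% were lower under the scaling used, 36.6% with shares of the sum and 34.4% with shares without vitellogenins. The summed scaled means were 77470 at 20 °C and 55056 at 26 °C for the 6 germline markers, led by gld-1, a translational repressor gene, at -0.74, and 213386 and 169943 for the 6 oocyte markers, led by cpg-1, an eggshell proteoglycan gene, at -0.22. The 24 somatic markers had a median of 0.09, with 15 higher and 9 lower, and with shares of the sum 21 were higher and 3 lower. The summed scaled means of the somatic lists were 1196672 at 20 °C and 1237302 at 26 °C in intestine, 144079 and 135649 in muscle, 25227 and 28326 in hypodermis, and 4490 and 5200 in neurons. The leading genes were the yolk protein gene vit-6 in intestine, the tropomyosin gene lev-11 in muscle, the collagen gene col-19 in hypodermis and the synaptobrevin gene snb-1 in neurons. Most of the intestine sum was vit-6, and the other 5 intestine markers summed to 44602 at 20 °C and 38874 at 26 °C, the opposite direction. Of these 5, 3 were higher and 2 lower, and the largest, act-5, had scaled means of 28597 and 21514. Without col-19 the hypodermis sum also turned, with 2536 and 2071. Of those 5 markers, 3 were higher and 2 lower, and the largest, nhr-23, had 1874 and 1346. The genes act-5 and nhr-23 are named outside the naming rule. The 6 sperm markers had a median log2 ratio of -0.29, with 4 lower and 2 higher, and summed to 1850 and 891. That difference was mostly the major sperm protein gene msp-3, with scaled means of 1272 and 400 and a log2 ratio of -1.67, and the other 5 summed to 578 and 491. The part of tissue make-up in the lower Mutator means at 26 °C was not tested.

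**Figure D4:**
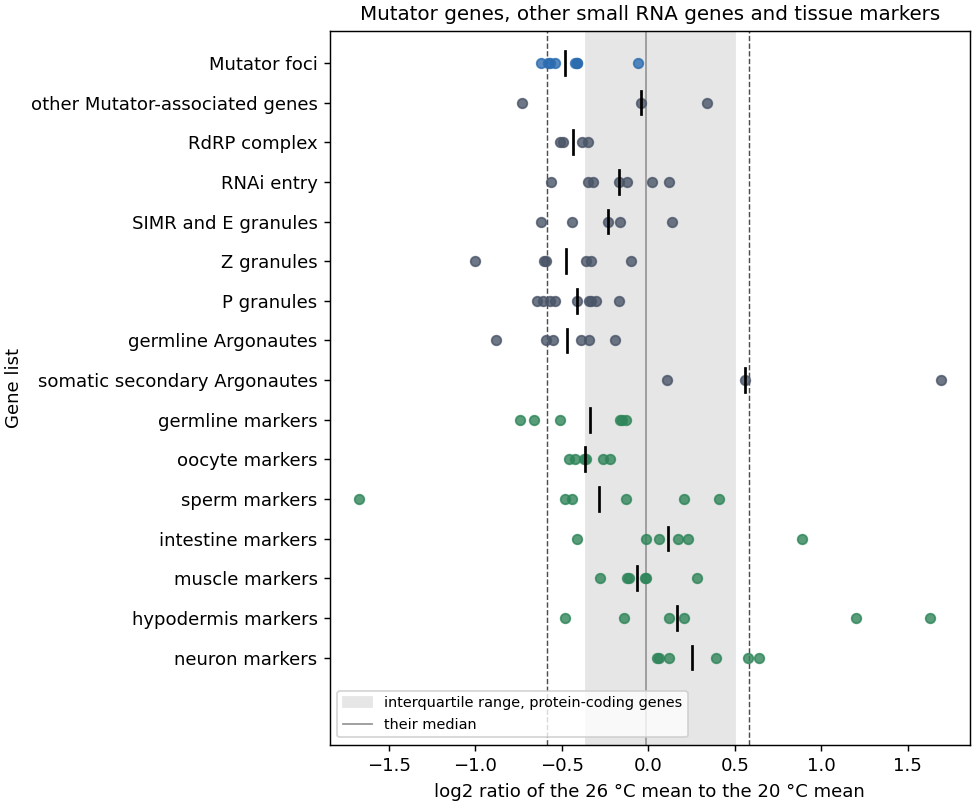
The log2 ratio of the 26 °C mean to the 20 °C mean for each gene (points) of the Mutator list, 8 other small RNA lists and 7 tissue marker lists, with a black tick at each list's median. The grey band is the interquartile range of protein-coding genes from -0.36 to 0.50 and dashed lines stand at 1.5-fold; the Mutator genes, except smut-1, lie left of the band, where several germ granule genes and germline markers also lie.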

How the data were processed

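Ribosomal RNA was removed from total RNA of whole worms before directional library preparation. Per the labels the genome build was WBcel235, and the authors ran DESeq2 to make 10 tables; the aligner and counting tool are not given in the sources used here. The value used is the deposited mean normalized count, a signal averaged by the authors over the libraries of a fit. It was identical (within 1e-06) in 3 tables at 20 °C, in 3 at 26 °C and in 4 that compare the temperatures. These tables also hold the authors' own comparisons (log2 fold changes, standard errors, statistics and p-values), which were not used, and 0 columns of values per library. The members and lists were chosen with earlier results of these data known.

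Both temperature means were multiplied by factors (1.052 at 20 °C, 0.981 at 26 °C) fitted by least squares of relative error, so that their average gave the mean over both temperatures, over 14175 genes with a mean of at least 10. The fit left a median absolute difference of 3.35%, with 16.9% at the 95th percentile. In all 8 members the difference had the same direction, with the average of the scaled means 1.57% to 4.31% above the mean over both temperatures. The fitting code was run on simulated data with known factors, which does not test whether this scaling holds for the real means. Positions and lengths came from Ensembl 115, where all 46926 identifiers were found. The naming rule took all members, list genes past 1.5-fold, and the gene with the highest level per kb of each list and marker set. Alternatives were 5 planned scalings, other limits (log2 0.32 and 1), lengths and backgrounds, and 1 scaling chosen after seeing the data. Python 3.11.15, numpy 2.4.6, pandas 2.3.3, scipy 1.17.1 and matplotlib 3.10.9 were used.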

Additional observations from a re-analysis of the deposited data

How the results depend on the processing

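No paired analysis was possible because the deposited means used here carry no replicate numbers, and for the same reason no replicate was left out and no error is given. Protein features of the members were not run. Coding length was taken from the Ensembl annotation and moved the median level of the members from 758.51 to 891.73 per kb. The median log2 ratio of the members, -0.48, was -0.28 with shares of the sum, -0.25 with shares without vitellogenins, and -0.27 with factors from genes with a mean of at least 1000, an alternative chosen after seeing the data. It was -0.38 with the means as deposited, -0.39 with factors from genes with a mean of at least 100 and -0.47 when centred on the median gene. The count of members past 1.5-fold lower, 1, was 0 under each of these scalings except centring, 7 at a log2 limit of 0.32 and 0 at 2-fold. The log2 ratio of smut-1, -0.06, turned to 0.04 with the means as deposited, 0.14 with shares of the sum, 0.17 without vitellogenins, 0.02 with the minimum of 100 and 0.15 with that of 1000. For the pathway genes the median of -0.35 was -0.25 with the means as deposited, -0.15 with shares and -0.12 without vitellogenins, and the counts past 1.5-fold, 9 lower and 1 higher, were 3 and 2, 2 and 2, and 2 and 2. At a log2 limit of 0.32 those counts were 26 and 3, where 27.8% of the protein-coding genes were lower and 32.5% higher. At 2-fold 0 of the pathway genes were lower and 1 was higher. For the 42 tissue markers the median of -0.11 was -0.01, 0.09 and 0.12 under the same 3 scalings. Past 1.5-fold, 3 were lower and 4 higher, beside 13.3% and 21.6% of the protein-coding genes, and the counts were 1 and 7 with either share. Among the 4 higher, rol-6 and dpy-7, named outside the naming rule, had low deposited means. These were 7.4 at 20 °C and 24.7 at 26 °C for rol-6, and 8.1 and 20.0 for dpy-7. Without a minimum mean, the median protein-coding gene was at 0.09 in place of -0.01. The shares of protein-coding genes past a limit were not counted under the other scalings, and at 2-fold they were not counted under any scaling.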

Other observations

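Some genes of the small RNA lists are direct neighbours in the genome and were looked at after their values were seen. The Mutator gene mut-15 and hrde-2, a gene of nuclear RNA interference, lie 32 bp apart on the same strand of chromosome V. The log2 ratio of the 26 °C mean to the 20 °C mean was -0.42 for mut-15 and -0.16 for hrde-2, and the hrde-2 to mut-15 ratio of mean counts was 1.11 at 20 °C and 1.32 at 26 °C. The polymerase genes ego-1 and rrf-1 lie 563 bp apart on the same strand of chromosome I, and the ego-1 to rrf-1 ratio of mean counts was 2.07 at 20 °C and 1.64 at 26 °C. The genes rde-12 and mip-2 lie 60 bp apart on opposite strands of chromosome V, and their ratio was 1.54 at 20 °C and 1.52 at 26 °C. These means carry no error.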
